A study of Mus musculus with 29 samples.

Results

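The genes for tumour necrosis factor (TNF), its receptors and the feedback regulators of NF-kB were followed through acute and chronic colitis in mice. The members were a named set of 10 genes, Tnf, Tnfrsf1a, Tnfrsf1b, Tnfaip2, Tnfaip3, Nfkbia, Nfkbiz, Relb, Icam1 and Birc3. They were chosen with earlier results of these data known, out of 19938 genes that have at least 1 probe set with a single gene symbol. On the array a transcript is read by a probe set, a group of short oligonucleotides, and each member had 1 such probe set, so that 10 of 35511 probe sets are described. In the build GRCm38.p6, Tnf lies on chromosome 17, Tnfrsf1a on 6, Tnfrsf1b on 4, Tnfaip2 and Nfkbia on 12, Tnfaip3 on 10, Nfkbiz on 16, Relb on 7, and Icam1 and Birc3 on 9. Female C57BL6J mice, with 6 weeks as the labelled age, received dextran sodium sulphate (DSS), a polymer that damages the colonic epithelium when given in drinking water. Acute colitis mice (n = 4) were killed after 7 days of DSS with no recovery. The 1 cycle group (n = 5) had 7 days of DSS and then 2 weeks of recovery, and the groups of 2 cycles (n = 5) and 3 cycles (n = 5) repeated this cycle. A further group (n = 5) had 3 additional weeks of recovery after 2 cycles and is called recovery below, and control mice (n = 5) received no DSS. All 6 groups shared strain, sex and labelled age, and no transgene is named for any. The DSS and recovery periods differed in length, and the study describes all mice as age-matched when killed. It gives a higher DSS concentration for later cycles than for the initial cycle. RNA came from a piece of the most infiltrated part of the colon, so that the piece was chosen by its inflammation and the values do not stand for the whole organ.

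TNF is released by activated macrophages and other immune cells and binds the receptors encoded by Tnfrsf1a and Tnfrsf1b. The receptor complex activates the kinases that mark the inhibitor IkB-alpha, the product of Nfkbia, for destruction, and NF-kB dimers then enter the nucleus and switch on inflammatory genes. Among these target genes are inhibitors of the same pathway, such as Nfkbia itself and Tnfaip3, which encodes the ubiquitin-editing enzyme A20, so that the response limits itself. Antibodies against TNF are used to treat Crohn's disease and ulcerative colitis, for which DSS colitis is a common mouse model.

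Each array held the RNA of 1 mouse, and the deposited values are on the log2 scale, where a difference of 1 is a 2-fold change. The brightness of a probe set depends on its probes, and values are compared here between groups for 1 gene and not between genes. The median log2 value was 6.02 to 6.14 in every array. The epithelial markers listed for colon had a mean log2 level of 10.89 to 11.00 in controls. Markers of stratified squamous epithelium, which the colon lacks, stood apart in 5 arrays: their mean log2 level was 5.23 to 5.40 in controls, 9.36, 9.05, 7.49 and 9.08 in recovery replicates M1, M3, N2 and N3 and 7.50 in 3 cycles replicate G3, and at most 5.61 in the other arrays. Groups were compared with limma, a linear model of every probe set with a moderated error, and a difference passed the test where its p, adjusted by Benjamini-Hochberg over every probe set, was under 0.05. The arrays were also split into 2 sets by 1 probe set with no gene listed. It was picked for the widest gap of all probe sets that left at least 10 arrays on each side. Such a pick gives a split in any data, no label names these sets, and what separates them was not tested. They do not follow the groups alone. The probe set was at most 8.14 in 14 arrays, which included every control and 1 cycle array. It was at least 11.09 in 15 arrays, which included every 3 cycles and recovery array. Acute replicates B2 and B3 belonged to the former set and B4 and C3 to the latter, and 2 cycles replicates D4 and D5 to the former and E2, E3 and E4 to the latter.

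Promoter sequences of the members were read to show which of these genes carry letters of the kind NF-kB binds close to the start. RefSeq windows of GRCm38.p6, from 250 bases before the start of a transcript to 50 after it, were given for 8 of the 10 members, with 2 windows for Tnfaip3 and none for Relb and Nfkbiz. The kappaB consensus, searched on both strands, was found in 3 of the 9 windows and in 8.46% of 32851 windows of the same length. A related 9-letter motif, GGNNTTTCC, where N is any base, was found on either strand in 4 of the 9 windows and in 5.82% of all windows, and the matches of both motifs can overlap. The 250 bases before the start of 6 windows follow, 5′ to 3′ on the strand of the gene, with the bases of any match in capitals. Nfkbia, Tnfaip3, Icam1 and Tnfaip2 are shown because they held a match, and Tnf, the ligand, and Birc3, which did not pass the test in acute colitis, as windows without one.
Nfkbia (chr12:55492648-55492897, minus strand): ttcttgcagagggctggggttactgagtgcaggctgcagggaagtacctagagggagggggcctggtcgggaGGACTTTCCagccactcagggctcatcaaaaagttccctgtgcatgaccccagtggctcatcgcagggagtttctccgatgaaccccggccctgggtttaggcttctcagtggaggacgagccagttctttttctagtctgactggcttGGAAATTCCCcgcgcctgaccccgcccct
Tnfaip3 (chr10:19015411-19015660, minus strand): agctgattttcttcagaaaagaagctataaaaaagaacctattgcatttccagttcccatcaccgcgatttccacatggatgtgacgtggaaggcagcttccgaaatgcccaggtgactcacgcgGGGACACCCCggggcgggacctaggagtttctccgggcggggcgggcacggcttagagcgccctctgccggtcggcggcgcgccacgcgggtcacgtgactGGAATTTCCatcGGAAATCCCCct
Icam1 (chr9:21015690-21015939, plus strand): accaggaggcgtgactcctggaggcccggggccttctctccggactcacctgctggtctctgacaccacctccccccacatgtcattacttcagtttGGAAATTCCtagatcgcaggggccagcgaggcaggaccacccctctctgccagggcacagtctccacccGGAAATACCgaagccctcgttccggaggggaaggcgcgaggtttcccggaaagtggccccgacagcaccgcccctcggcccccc
Tnfaip2 (chr12:111442411-111442660, plus strand): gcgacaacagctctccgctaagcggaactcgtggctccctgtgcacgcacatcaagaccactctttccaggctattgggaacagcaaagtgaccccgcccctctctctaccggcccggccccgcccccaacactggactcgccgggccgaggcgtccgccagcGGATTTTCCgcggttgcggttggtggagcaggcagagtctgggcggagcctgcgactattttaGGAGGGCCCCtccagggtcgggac
Tnf (chr17:35202008-35202257, minus strand): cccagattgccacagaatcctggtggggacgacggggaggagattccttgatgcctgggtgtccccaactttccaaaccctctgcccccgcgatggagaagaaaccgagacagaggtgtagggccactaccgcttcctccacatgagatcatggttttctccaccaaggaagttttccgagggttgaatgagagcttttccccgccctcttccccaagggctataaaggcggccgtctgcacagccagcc
Birc3 (chr9:7873171-7873420, minus strand): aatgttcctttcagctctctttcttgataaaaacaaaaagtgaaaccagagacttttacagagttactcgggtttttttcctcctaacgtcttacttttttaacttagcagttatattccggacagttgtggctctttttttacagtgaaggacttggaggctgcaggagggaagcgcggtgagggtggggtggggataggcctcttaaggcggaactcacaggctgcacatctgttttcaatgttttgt

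In the Nfkbia promoter a kappaB match lay at positions -29 to -20, counted back from the base before the start, overlapping a GGNNTTTCC match, and a separate GGNNTTTCC match lay at -178 to -170. Tnfaip3 held 2 kappaB matches, at -125 to -116 and -12 to -3, and GGNNTTTCC matches at -24 to -16 and -12 to -4. Icam1 held 2 GGNNTTTCC matches, at -153 to -145 and -84 to -76, and no match of the kappaB consensus. Tnfaip2 held 1 match of each motif, at -24 to -15 for the kappaB consensus and at -87 to -79 for GGNNTTTCC. The windows of Tnfrsf1a, Tnfrsf1b, Tnf and Birc3 and the other Tnfaip3 window held no match, which says only that these letters are not in 300 bases around the start.

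Acute colitis raised 8 of the 10 genes, both receptors and the inhibitors included. Against control, 8 members were higher and 0 lower at an adjusted p under 0.05, compared with 11.4% of all probe sets called higher and 11.6% lower. Of these, 4 rose more than 2-fold (1.38% of all probe sets did), namely Tnfaip2, Tnf, Icam1 and Tnfrsf1b. For 6 members every acute array lay above every control array, as for 8.86% of all probe sets. The median log2 difference was 0.92 over the members and 0.04 over all probe sets.

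Tnf, the ligand, had log2 values of 5.43, 5.80, 5.55, 5.49 and 5.52 in the 5 controls and of 6.17 (B2), 8.61 (B3), 7.57 (B4) and 7.17 (C3) in acute colitis. All 4 acute mice lay above the controls, and replicate B3 stood highest and B2 lowest. The rise was 1.82 on the log2 scale (SE 0.31, adjusted p = 7.4e-05, limma), or 3.54-fold.

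The receptors rose together but by different amounts. Tnfrsf1b, which encodes TNFR2, the receptor found mainly on immune and endothelial cells, was at 7.03, 7.11, 7.08, 7.16 and 7.30 in controls and at 7.91 (B2), 9.18 (B3), 8.95 (B4) and 9.23 (C3) in acute colitis. Replicates B3, B4 and C3 were close to each other and B2 lay between them and the controls. The rise was 1.68 (SE 0.18, adjusted p = 4.23e-07), or 3.21-fold. Tnfrsf1a, which encodes TNFR1, the receptor present on most cell types and the one with a death domain, was at 8.38, 8.44, 8.40, 8.41 and 8.43 in controls and at 8.78 (B2), 9.43 (B3), 9.27 (B4) and 9.23 (C3) in acute colitis. Its control values differed least of the 10 genes (SD 0.024, n = 5), and all acute mice lay above them, by 0.76 on average (SE 0.10, adjusted p = 2.43e-06), or 1.70-fold.

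Genes for inhibitors of NF-kB rose as well, by less than 2-fold. Nfkbia was at 8.32, 8.54, 8.35, 8.43 and 8.10 in controls and at 8.49 (B2), 9.93 (B3), 9.44 (B4) and 9.11 (C3) in acute colitis, a rise of 0.89 (SE 0.18, adjusted p = 0.000439). Nfkbiz, which encodes IkB-zeta, an inhibitor-like nuclear protein that is needed for some NF-kB target genes, was at 7.13, 7.55, 7.44, 7.46 and 7.50 in controls and at 7.84 (B2), 8.79 (B3), 8.21 (B4) and 8.60 (C3) in acute colitis. It rose by 0.94 (SE 0.16, adjusted p = 0.000114), with no overlap between the groups. Tnfaip3 was at 7.99, 7.70, 7.74, 7.40 and 7.54 in controls and at 7.50 (B2), 8.83 (B3), 8.30 (B4) and 8.25 (C3) in acute colitis, a rise of 0.55 (SE 0.18, adjusted p = 0.0288). For Nfkbia and Tnfaip3 replicate B2 lay within the range of the controls and the other 3 acute mice above it. The Tnfaip3 call was the weakest of the 8 and was lost when acute replicate B3, B4 or C3 or control replicate L1 or L2 was left out (adjusted p up to 0.163), and when the model held a term for the 2 sets of arrays (0.0645). The other 7 passed with any single array left out.

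Of the remaining target genes, Tnfaip2, named for its induction by TNF, and Icam1, an adhesion molecule that leukocytes bind on activated endothelium and epithelium, had large rises. Tnfaip2 was at 6.32, 6.19, 6.21, 6.10 and 6.34 in controls and at 6.65 (B2), 10.03 (B3), 8.48 (B4) and 8.33 (C3) in acute colitis. It had the largest rise and the largest spread of the members, 2.14 on the log2 scale (SE 0.39, adjusted p = 0.000168), or 4.41-fold. Icam1 was at 6.56, 7.00, 6.78, 6.67 and 6.93 in controls and at 7.37 (B2), 9.77 (B3), 8.64 (B4) and 8.29 (C3) in acute colitis, a rise of 1.73 (SE 0.27, adjusted p = 3.66e-05), or 3.32-fold. In both genes B2 was nearest to the controls and B3 farthest from them.

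Relb and Birc3 did not pass the test in acute colitis or in any other comparison. Relb encodes the NF-kB subunit that acts mainly in the alternative pathway, and was at 6.73, 6.62, 6.83, 6.77 and 6.73 in controls and at 6.32 (B2), 7.05 (B3), 6.76 (B4) and 6.78 (C3) in acute colitis. B2 lay below every control and B3 above every control, and the mean difference was -0.01 with a 95% interval of -0.21 to 0.19. Birc3 encodes cIAP2, a ubiquitin ligase of the TNF receptor complex that protects cells from death, and was at 8.37, 8.45, 8.71, 8.32 and 8.42 in controls and at 8.18 (B2), 8.83 (B3), 8.40 (B4) and 8.50 (C3) in acute colitis. The difference was 0.02, with a 95% interval of -0.28 to 0.32, so that a mean rise as large as that of Nfkbia lies outside the intervals of both genes. Over the other groups Relb lay between 6.52 and 6.86 and Birc3 between 8.06 and 8.79.

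**Figure D1:**
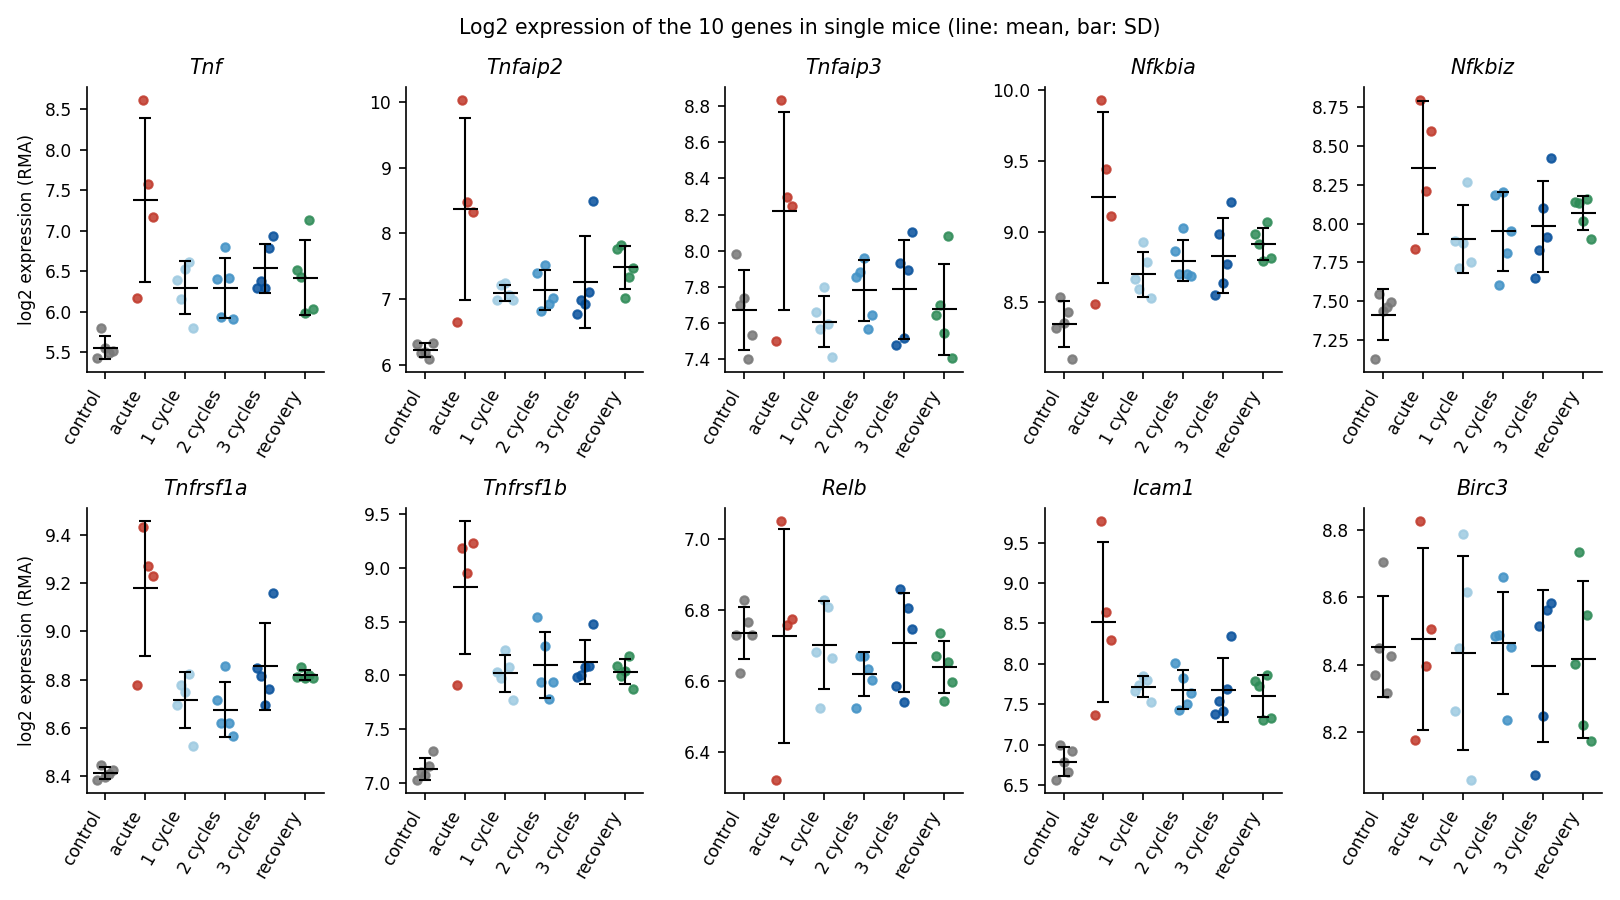
Log2 expression (RMA, vertical axis, a separate scale in each panel) of the 10 genes in the 6 groups; each point is 1 mouse, the horizontal line is the group mean and the bar the SD. In 6 panels (Tnf, Tnfaip2, Nfkbiz, Tnfrsf1a, Tnfrsf1b and Icam1) all control points lie below the points of every other group, whereas the groups overlap for Relb and Birc3.

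In the piece of colon analysed, fewer cells of a type and less RNA per cell cannot be told apart, and leukocyte markers moved with the members. The marker lists were chosen with earlier results of these data known. Of 12 neutrophil markers 7 were higher in acute colitis and 0 lower. Their mean log2 level was 5.35 to 5.44 in controls and 5.74 (B2), 8.04 (B3), 6.53 (B4) and 6.75 (C3) in acute colitis. S100a8, S100a9 and Csf3r, 3 of the markers that rose, were at 4.69 to 4.97, 5.03 to 5.34 and 4.89 to 5.58 in controls. In acute colitis they were at 5.45 to 9.36, 6.30 to 10.01 and 5.64 to 7.93. The 5 neutrophil markers that did not pass were Ltf, Mpo, Camp, Elane and Ly6g, with differences of 1.22, 0.22, 0.10, -0.08 and -0.19. Of 11 measured monocyte and macrophage markers 9 were higher and 1 lower, and their mean level was 6.51 to 6.89 in controls and 6.91 (B2), 8.50 (B3), 7.71 (B4) and 7.99 (C3) in acute colitis. Both lists thus had B2 lowest and B3 highest, as Tnf, Tnfaip2 and Icam1 did. Between these ends C3 was above B4 in both lists and below B4 for those genes. Of 8 endothelial markers 0 were higher and 2 lower in acute colitis, with a mean level of 7.13 to 7.31 in controls and 6.98 to 7.13 in acute colitis, while Icam1 rose. Of 7 measured T cell markers 4 were higher, and of 7 measured B cell markers 0 were. Of 8 markers of fibroblasts and smooth muscle 0 were higher and 4 lower, with a mean level of 10.42 to 10.68 in controls and 9.55 to 10.10 in acute colitis, and of 12 markers of colon epithelium 1 was higher and 4 were lower, with a mean level of 10.13 to 10.99 in acute colitis. Of all probe sets 11.4% were higher and 11.6% lower in acute colitis. The part of the cell markers in the rise of the members was not tested.

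After DSS had stopped, Tnfrsf1b and Icam1 were still above control in every chronic group. After 1 cycle 3 members were higher and 0 lower (3.4% of all probe sets were higher and 3.54% lower), namely Tnfrsf1b, Icam1 and Tnfrsf1a. After 2 cycles 3 were higher and 0 lower (3.08% of all higher and 2.51% lower), namely Tnfrsf1b, Nfkbiz and Icam1. After 3 cycles 7 were higher and 0 lower (8.81% of all higher and 9.26% lower), every member but Tnfaip3, Relb and Birc3. After 1 and 2 cycles 0 members were higher by more than 2-fold, as 0.87% and 0.907% of all probe sets were. The median log2 differences of the members were 0.42, 0.49 and 0.52 after 1, 2 and 3 cycles, against -0.01, -0.01 and 0.02 over all probe sets. For 6 members after 1 cycle, and 7 each after 2 and 3 cycles, every array lay above every control array, as for 4.89%, 4.7% and 8.15% of all probe sets. The 5 comparisons with control share the same 5 control arrays.

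Tnfrsf1b had the smallest adjusted p of the members in each chronic group. It was at 8.04, 7.98, 8.24, 8.08 and 7.77 after 1 cycle, at 8.54, 7.94, 8.27, 7.79 and 7.94 after 2 cycles and at 7.98, 8.0, 8.07, 8.09 and 8.48 after 3 cycles. No chronic array was below 7.77 and no control above 7.30. The log2 differences from control were 0.89 (SE 0.17, adjusted p = 0.00214), 0.96 (SE 0.17, adjusted p = 0.00113) and 0.99 (SE 0.17, adjusted p = 0.000456), each just under 2-fold.

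Tnf itself was at 6.39, 6.16, 6.52, 6.62 and 5.81 after 1 cycle, at 6.41, 5.93, 6.80, 6.42 and 5.91 after 2 cycles and at 6.29, 6.38, 6.29, 6.78 and 6.93 after 3 cycles. All 15 chronic arrays lay above the highest control, 5.80, although K3 did so by a narrow margin. The differences were 0.74 (SE 0.29, adjusted p = 0.134) after 1 cycle and 0.73 (SE 0.29, adjusted p = 0.147) after 2 cycles, which did not pass, and 0.98 (SE 0.29, adjusted p = 0.0198) after 3 cycles, which did.

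Icam1 was at 7.67, 7.74, 7.85, 7.81 and 7.53 after 1 cycle, at 8.01, 7.43, 7.83, 7.51 and 7.64 after 2 cycles and at 7.38, 7.54, 7.42, 7.69 and 8.35 after 3 cycles, in every chronic mouse above the highest control of 7.00. Its differences from control were 0.93, 0.90 and 0.89 (SE 0.26 each, adjusted p = 0.0257, 0.0381 and 0.0179, limma). The Icam1 call was lost in 6, 8 and 1 of the 29 fits that left out 1 array, and the Tnfrsf1b call in 0 of them in each chronic group. Tnfrsf1a was at 8.52 to 8.82, 8.57 to 8.86 and 8.69 to 9.16 after 1, 2 and 3 cycles, again above every control, with differences of 0.30, 0.26 and 0.44 (adjusted p = 0.0443, 0.0958 and 0.00183). The receptor gene most widely expressed thus had the smaller difference in each chronic group, on the log2 scale. The Tnfrsf1a call after 1 cycle was lost in 14 of the 29 fits that left out 1 array.

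Tnfaip2 was at 6.99 to 7.24 after 1 cycle and 6.82 to 7.53 after 2 cycles, above the highest control of 6.34, but its differences of 0.87 and 0.91 did not pass with an SE of 0.36 (adjusted p = 0.169 and 0.155). After 3 cycles it was at 6.78, 7.00, 6.93, 7.11 and 8.49, and the difference of 1.03 (adjusted p = 0.0488) was the only member above 2-fold (1.02% of all probe sets were). This call lay at the threshold and was lost in 25 of the 29 fits that left out 1 array, arrays of other groups included. Without replicate G3, which stood apart at 8.49, the difference was 0.72 (adjusted p = 0.179).

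Among the inhibitors, Nfkbiz differed from control by 0.48, 0.53 and 0.57 after 1, 2 and 3 cycles (adjusted p = 0.0581, 0.039 and 0.0121) and passed after 2 and 3 cycles. Nfkbia differed by 0.35, 0.45 and 0.48 (adjusted p = 0.241, 0.123 and 0.0438) and passed after 3 cycles. Tnfaip3 did not pass in any chronic group: it was at 7.66, 7.57, 7.80, 7.60 and 7.42 after 1 cycle, at 7.86, 7.88, 7.96, 7.57 and 7.64 after 2 cycles and at 7.48, 7.93, 7.52, 7.89 and 8.10 after 3 cycles, within or near the control range of 7.40 to 7.99. Its 95% intervals were -0.42 to 0.29, -0.24 to 0.46 and -0.24 to 0.46. Of the 8 genes that rose in acute colitis, Tnfaip3 was therefore the one whose chronic mean stood nearest to control, with a chronic difference of 0.0959 of the acute one, where the other 7 had 0.437 to 0.562.

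The model of all groups uses 1 error per gene. The acute mice varied most for every member but Birc3 (Tnf had an SD of 1.01 in acute colitis and 0.33 after 1 cycle). The part of this spread in the counts below was not tested. With only the 2 compared groups in the model, 7 members passed after 1 cycle and 7 after 2 cycles, where the model of all groups called 3 and 3. In the latter model the count after 1 cycle was 1 without 1 cycle replicate J5, K1 or K2 or control A1, A5 or L1, and 5 without acute replicate B2 or B3. After 2 cycles it was 1 without 2 cycles replicate D4, E2 or E4 or control A1, A5, L1 or L2, and 6 without acute replicate B2. With the sets of arrays as a covariate, 1 member passed after 2 cycles. Control arrays were all in 1 set of arrays and 3 cycles arrays all in the other, and with this covariate 0 members passed after 3 cycles (limma, 4 at an unadjusted p under 0.05). The differences moved by at most 0.11 while the errors grew, as for Tnfrsf1b after 3 cycles (0.88, SE 0.26, adjusted p = 0.102). Without 3 cycles replicate G3, which was the highest of its group for all 8 genes, 2 members, Tnfrsf1a and Tnfrsf1b, passed after 3 cycles. G3 also had a neutrophil marker level of 6.87, where the median of the 3 cycles group was 5.61, and a squamous epithelium marker level of 7.50, where the other 4 arrays of the group were at 5.29 to 5.39. The part of these markers in the values of G3 was not tested.

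**Figure D2:**
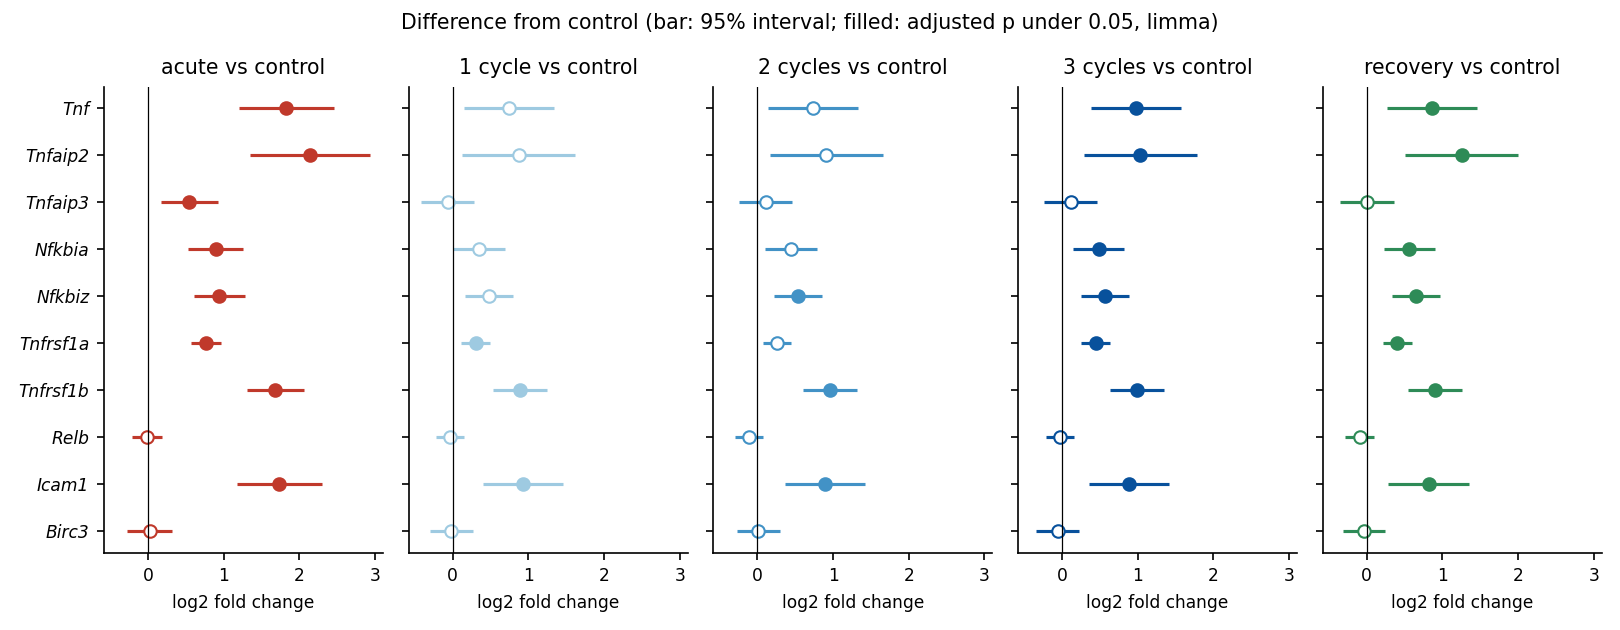
Log2 fold change from control (horizontal axis) of the 10 genes in acute colitis, after 1, 2 and 3 cycles and after recovery; bars are 95% intervals from limma, and filled points have an adjusted p under 0.05. Filled points number 8, 3, 3, 7 and 7 from left to right, all to the right of 0.

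Acute colitis was compared directly with the mean of the 3 chronic groups. Of the members 8 were higher in acute colitis and 0 lower (6.6% of all probe sets were higher and 5.66% lower), with a median log2 difference of 0.48 (0.03 over all probe sets). Tnfaip2 was higher by 1.21 (SE 0.32, adjusted p = 0.0129) and Tnf by 1.01 (SE 0.26, adjusted p = 0.00886), the 2 members above 2-fold (0.282% of all probe sets were). Icam1 was higher by 0.83 and Tnfrsf1b by 0.74, and Tnfaip3, Nfkbia, Tnfrsf1a and Nfkbiz by 0.42 to 0.49. The Nfkbiz call (adjusted p = 0.0467, limma) lay at the threshold and was lost in 22 of the 29 fits that left out 1 array. Relb differed by 0.05 (95% interval -0.12 to 0.22) and Birc3 by 0.04 (-0.21 to 0.30).

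The 4 acute mice did not contribute alike. Replicate B3 lay above all 15 chronic arrays for all 8 genes, B4 for 6 and C3 for 5, whereas B2 did so for 0. B2 was the lowest acute mouse for each of the 8, was above the chronic median for 1 and below every chronic array for 3. No member had all acute arrays above all chronic arrays, as 1.28% of all probe sets had. Left out in turn, B3, B4 and C3 brought the count from 8 to 2, 4 and 5. Without B3 the difference was 0.60 for Tnf (adjusted p = 0.108) and 0.65 for Tnfaip2 (adjusted p = 0.155), so that neither passed or was above 2-fold. With only the compared groups in the model 3 members passed, and with arrays weighted by their agreement with their group 4 did.

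**Figure D3:**
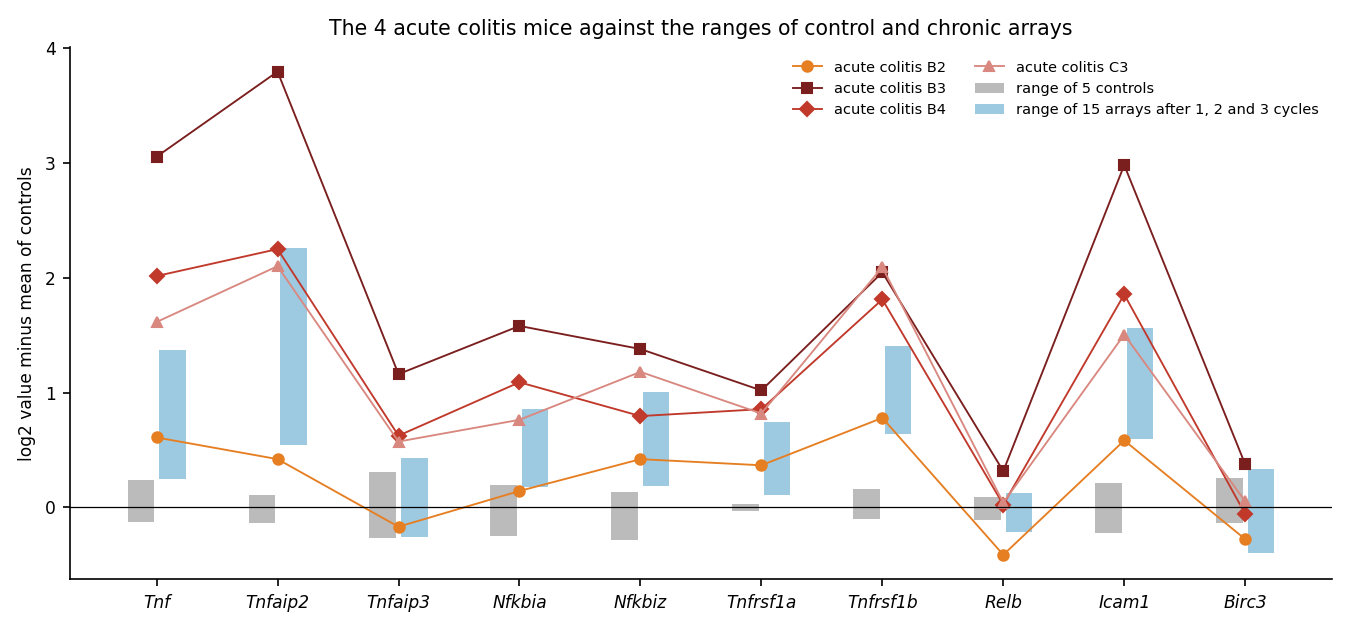
Log2 value minus the mean of the 5 controls (vertical axis) for each gene (horizontal axis) in the 4 acute mice, drawn as points joined by lines, beside the ranges of the controls (grey bars) and of the 15 arrays after 1, 2 and 3 cycles (blue bars). B3 is above the blue bar for each of the 8 genes that rose, and B2 lies within or below it.

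After 3 further weeks of recovery following 2 cycles, the same 7 members as after 3 cycles were above control. Against control 7 were higher and 0 lower (6.05% of all probe sets were higher and 6.61% lower), every array lay above every control for 7 members (6.44% of all probe sets), and the median log2 difference was 0.61 (0.00 over all). Tnfaip2 was at 7.77, 7.83, 7.02, 7.34 and 7.47, higher by 1.25 (SE 0.36, adjusted p = 0.0244), the only member above 2-fold (1.08% of all). Tnfrsf1b was at 8.08, 7.99, 8.04, 8.18 and 7.87, higher by 0.90 (SE 0.17, adjusted p = 0.00149). Both genes were above the highest control in every recovery mouse.

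Tnf was at 6.52, 6.42, 5.99, 7.14 and 6.03 after recovery, higher than control by 0.86 (adjusted p = 0.0485), with replicate N2 highest and M5 lowest. This call lay at the threshold and was lost in 21 of the 29 fits that left out 1 array, among them those without any 1 of the 5 controls (adjusted p up to 0.139). Tnfrsf1a was nearly constant at 8.81, 8.85, 8.81, 8.82 and 8.81, higher by 0.41 (SE 0.091, adjusted p = 0.00498). Nfkbiz, Nfkbia and Icam1 were higher by 0.65, 0.56 and 0.82 (adjusted p = 0.00713, 0.0264 and 0.0369), while Tnfaip3 was at 7.65, 7.70, 7.55, 8.08 and 7.41 and differed by 0.00 (95% interval -0.35 to 0.35). Without recovery replicate M1, 3 members passed, and 4 each without M3, without N2 and without control A1 or A5. Recovery arrays were all in the set opposite to the controls, and with the sets as a covariate 0 members passed (limma, 6 at an unadjusted p under 0.05) while differences moved by at most 0.11.

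The squamous epithelium markers moved with the recovery group. Of 8 markers 7 were higher than in control and 0 lower, Krt5, Krt4 and Krt13 by 4.62, 4.31 and 4.05 on the log2 scale. Among the recovery mice, M5 and N3 were each the lowest for 4 of the 8 genes that rose in acute colitis. The mean level of the squamous markers was 9.36 (M1), 9.05 (M3), 5.18 (M5), 7.49 (N2) and 9.08 (N3), so that M5 alone lay near the level of the controls. With these 4 recovery arrays and G3 left out together, a choice made after seeing the data, M5 alone stood for recovery and is assumed to vary like the other groups. Then 0 members passed against control (limma, 3 at an unadjusted p under 0.05), with differences of 0.43 for Tnf, 0.79 for Tnfaip2 and 0.91 for Tnfrsf1b. After 3 cycles 2 members passed. The part of the squamous epithelium in the recovery values was not tested.

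Recovery was also compared with 2 cycles, the group it continues. No member passed in either direction (limma, adjusted p = 0.696 to 0.978), where 0.259% of all probe sets were called higher, 0.152% higher by more than 2-fold and 0.0197% lower. At an unadjusted p under 0.05 the count was 0 of 10 as well. The difference of Tnf was 0.13 (95% interval -0.47 to 0.72), that of Tnfrsf1b -0.06 (-0.41 to 0.30), that of Icam1 -0.08 (-0.61 to 0.45) and that of Tnfaip2 0.35 (-0.40 to 1.09). For Tnfrsf1b the interval leaves out a fall by 0.96, the estimated difference between 2 cycles and control. That estimate has a 95% interval of its own, 0.60 to 1.31. For Tnf the same estimate was 0.73 (0.14 to 1.33) and did not pass. These intervals therefore do not decide on a return to the control level, which recovery against control addresses above. The order of the groups was alike for Tnf, Tnfaip2, Nfkbiz, Tnfrsf1a, Tnfrsf1b and Icam1: control was lowest and did not overlap with the next group, acute colitis had the highest mean and overlapped with its neighbour, and the 4 groups between overlapped with their neighbours. For Tnfaip3, Nfkbia, Relb and Birc3 every group overlapped with its neighbours in the order.

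Within groups, mice with a high value of 1 member tended to have high values of the others. Over the 29 arrays the 28 pairs among the 8 genes had a median Pearson r of 0.88 (0.58 to 0.95), and 0.78 (0.53 to 0.94) for deviations from the group means. Without the 4 acute arrays these medians were 0.83 and 0.63. The closest pair was Tnfaip2 and Icam1, at 0.95 over values and 0.94 over deviations. Relb and Birc3, which passed in no comparison, had an r of 0.65 with each other over values and 0.69 over deviations. The 16 pairs of Relb or Birc3 with the other genes had a median of 0.41 over values and 0.66 over deviations, and of 0.17 and 0.47 without the acute arrays. The arrays of a gene pair share RNA, hybridization and normalization, and these values are a description.

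**Figure D4:**
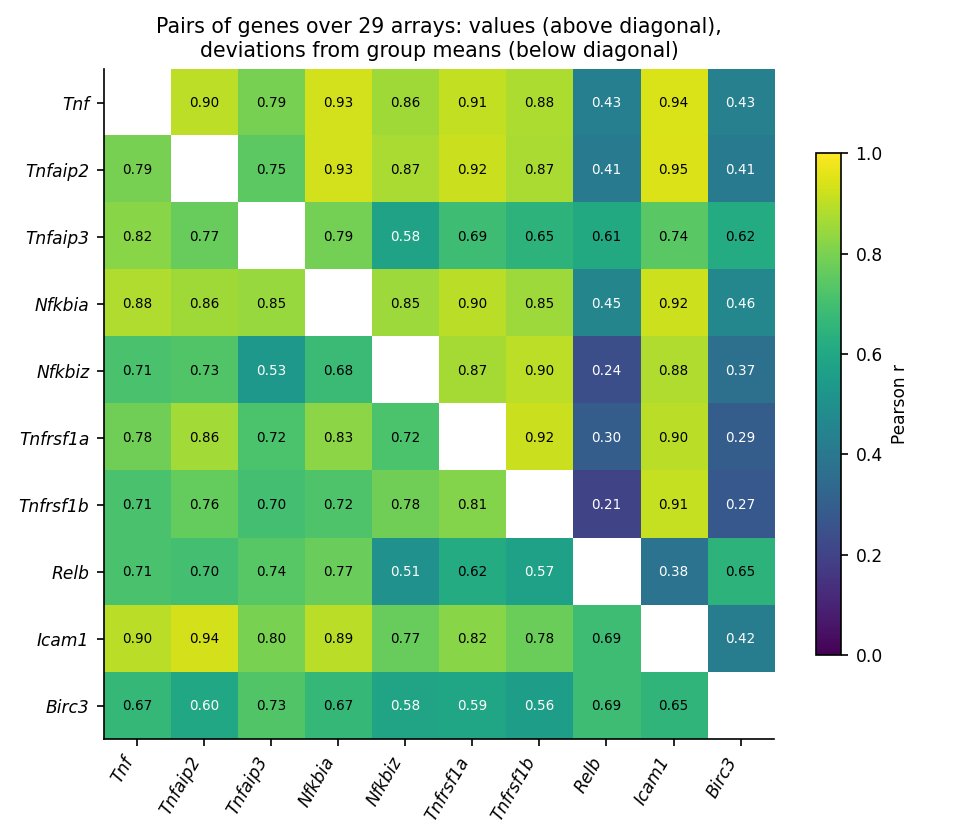
Pearson r between pairs of the 10 genes over 29 arrays, with the log2 values above the diagonal and deviations from group means below it; the colour scale runs from 0 to 1. The rows and columns of Relb and Birc3 are lower above the diagonal (0.21 to 0.65) than below it (0.51 to 0.77).

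Other genes of the pathway were counted from lists chosen, like the members, with earlier results of these data known, so the counts are a description. Beside each list that follows stand the shares over all probe sets, 11.4% higher and 11.6% lower in acute colitis. After 1, 2 and 3 cycles and recovery 3.4%, 3.08%, 8.81% and 6.05% were higher, and 6.6% in acute against chronic colitis. Of 21 measured genes of the TNF receptor complex, 7 were higher and 0 lower in acute colitis, with a median log2 difference of 0.11. After 3 cycles 6 were higher. Ripk3 and Mlkl, which carry out necroptosis, a form of cell death that TNF can start, rose by 1.85 and 1.27 in acute colitis and by 0.95 and 0.62 after 3 cycles. Adam17, the protease that sheds TNF from the cell surface, rose by 0.47 in acute colitis. Rnf31, a ubiquitin ligase of the complex, rose by 0.29 after 3 cycles, and its mean in acute colitis was also 0.29 above control. The other 14 did not pass in acute colitis.

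Of 13 measured NF-kB subunits, inhibitors and kinases, 11 were higher and 0 lower in acute colitis (median 0.40), and 1, 5 and 8 were higher after 1, 2 and 3 cycles. Bcl3 and Nfkbie, both of the IkB family like Nfkbia, rose by 1.22 and 0.99 in acute colitis and by 0.66 and 0.68 after 3 cycles. Rel, a subunit prominent in lymphoid and myeloid cells, rose by 0.90 in acute colitis. Nfkbid, another IkB-family gene, rose by 0.69 in acute colitis and by 0.51 after 3 cycles.

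Of 25 measured NF-kB target genes outside the members, 21 were higher and 0 lower in acute colitis (median 0.92, the same as for the members), 13 were higher in acute colitis than in the chronic groups, and 6, 4, 7 and 6 were higher after 1, 2 and 3 cycles and after recovery. The cytokine gene Il1b rose by 3.63 in acute colitis and was 1.34 above control after 3 cycles, which did not pass (SE 0.48, adjusted p = 0.0551). The chemokine genes Cxcl2 and Ccl2 rose by 2.76 and 2.66 in acute colitis. Vcam1, an endothelial adhesion molecule like Icam1, rose by 1.24 after 3 cycles. Its mean was also 1.21 above control in acute colitis, and 1.05, 1.13 and 1.14 above after 1 cycle, 2 cycles and recovery.

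Of 21 measured genes of the wider TNF superfamily, 10 were higher and 2 lower in acute colitis and 5 higher after 3 cycles. Tnfsf10, Tnfsf9 and Cd40 rose by 1.14, 1.04 and 1.01 in acute colitis. After 3 cycles the largest rises of this list were those of Ltb and Tnfrsf13c, by 1.01 and 0.90. Ltb encodes a lymphotoxin chain made by lymphocytes and Tnfrsf13c the BAFF receptor of B cells. The mean of Ltb was 0.47 above control in acute colitis and 0.99, 1.00 and 0.93 above after 1 cycle, 2 cycles and recovery. That of Tnfrsf13c was 0.28 above in acute colitis and 1.06, 1.23 and 0.95 above in those 3 groups. B cell markers moved alongside, with 5 of 7 higher after 3 cycles.

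Of 7 measured factors that act on Tnf mRNA, 1 was higher and 3 were lower in acute colitis. Zc3h12a, which encodes the RNase Regnase-1 and is itself an NF-kB target, rose by 1.27 in acute colitis and 1.06 after 3 cycles. Zfp36l2 and Zfp36l1, which encode proteins that bind AU-rich elements, fell by 0.55 and 0.32 in acute colitis, and Zfp36l2 fell by 0.24 after 3 cycles. Tia1 was 0.16 below control after 3 cycles and did not pass (adjusted p = 0.485).

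**Figure D5:**
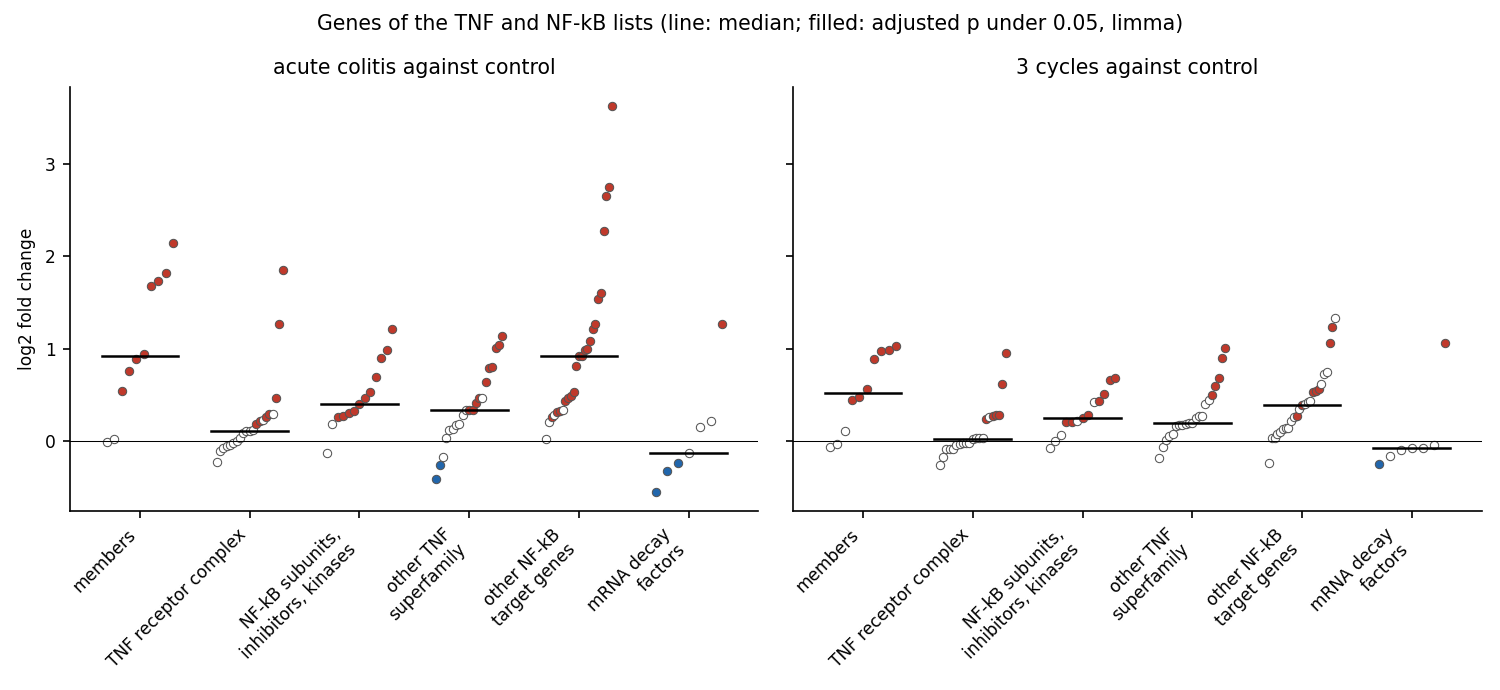
Log2 fold change (vertical axis) of single genes in the members and in 5 lists of the pathway, for acute colitis and 3 cycles against control; each point is a gene, the line is the median of the list, and red and blue points passed the test higher and lower. In acute colitis 8 of 10 members and 21 of 25 other NF-kB target genes are red.

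Markers of macrophages and lymphocytes were higher than in control in the chronic groups, as the members were. Of 11 measured, 7, 8, 7 and 6 were higher after 1, 2 and 3 cycles and after recovery, with mean levels from 7.13 to 7.89 across these 4 groups against at most 6.89 in controls. Of 12 neutrophil markers 0, 0, 1 and 3 were higher, although their mean levels of 5.51 to 6.87 after 1, 2 and 3 cycles lay above the control maximum of 5.44. After recovery the level was 5.36 to 6.47, with M5 lowest and below that maximum. The 3 neutrophil markers higher after recovery were Ltf, S100a9 and Csf3r, by 3.43, 1.47 and 0.93, where the median of the 12 was 0.48. Of 7 measured T cell markers 5, 6, 6 and 5 were higher after 1, 2 and 3 cycles and after recovery, and of 7 measured B cell markers 7, 6, 5 and 6. Of all probe sets 3.4%, 3.08%, 8.81% and 6.05% were higher after 1, 2 and 3 cycles and after recovery. The parts of these cell types in the chronic levels of Tnf, Tnfrsf1b and the other members were not tested.

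The genes outside the list whose values were most like the mean of the members, each centred on its own mean, were Slc15a3 (r = 0.97 over 29 arrays), AB124611 (0.96), Slamf8 (0.96), Gbp4 (0.96) and Pla2g7 (0.96). Without acute replicates B3 and B4, which lay farthest from the median, the values were 0.91 to 0.94. Slc15a3, a lysosomal transporter gene, was at 5.91 ± 0.18 (SD, n = 5) in controls, at 7.86 ± 1.07 (SD, n = 4) in acute colitis and at 6.92 ± 0.25 (SD, n = 5) after 1 cycle. These 5 genes were chosen for their likeness to the members, and their values are a description.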

How the data were processed

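Colonic RNA of 29 mice was measured on Mouse Gene 1.0 ST arrays (Affymetrix), 1 array per mouse. The authors' processing used RMA in R 2.12.2, and the deposited log2 values are 1 per probe set and array. RMA corrects background and brings all arrays to 1 distribution, so that a shift common to all genes cannot be seen. 1 further acute array was not analysed here. No signal over background is given, and the number of arrays limits the precision.

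Groups came from the labels. The deposited log2 values were compared with limma 3.58.1 in R 4.3.3, with 1 mean per group, 1 error per probe set over all 6 groups, no covariate, no filter, and Benjamini-Hochberg adjustment over all probe sets within each of 7 comparisons. The study's further threshold, a fold change above 2, was counted beside it. Gene symbols came from the platform annotation: 21789 probe sets had 1 symbol, 1621 several and 12101 none. The code was tested on simulated data. The members and lists were chosen with earlier results of these data known. Of 174 other list genes 166 had a single-symbol probe set, and the brightest was used. Named were every member, up to 3 genes of each pathway list with the largest absolute change in acute colitis and after 3 cycles, and the 5 genes most like the members' mean. Of a cell list whose level is given up to 3 markers were named, and of the neutrophil list also those that did not pass in acute colitis. Alternatives were the compared groups only, array weights, a trended robust prior, no dim probe sets, renewed quantile normalization, the label letter as a random block, the 2 sets of arrays as a covariate, the low set alone, each array left out and, added after seeing the data, 5 arrays left out together for their squamous epithelium markers.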

Additional observations from a re-analysis of the deposited data

Results flagged for a closer look

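Of 60 groups of values (10 genes in 6 groups), 4 held an array whose gap to its nearest neighbour was large for the range of the group, where chance gives about 1 in 20. In 3 cycles replicate G3, Tnfaip2 was at 8.49 and Tnfrsf1b at 8.48, both above the rest of that group. In control replicate A1 Nfkbiz was at 7.13, below the other controls. In recovery replicate M3 Tnfrsf1a was at 8.85, in a group whose whole range was 8.81 to 8.85.

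The effect of DSS differed between acute and chronic colitis for 8 genes, by limma's test of the difference between acute colitis and the mean of 1, 2 and 3 cycles. On the log2 scale the difference was 1.01 for Tnf (adjusted p = 0.00886), 1.21 for Tnfaip2 (0.0129), 0.49 for Tnfaip3 (0.0307), 0.47 for Nfkbia (0.0357) and 0.42 for Nfkbiz (0.0467). It was 0.43 for Tnfrsf1a (0.000682), 0.74 for Tnfrsf1b (0.00169) and 0.83 for Icam1 (0.0164). With 1 array left out, the Nfkbiz call was lost in 22 of 29 fits. The calls of Tnfaip3 and Nfkbia were lost without B3, B4 or C3, and that of Icam1 without B3 or B4. Those of Tnf and Tnfaip2 were lost without B3. With only the compared groups in the model 3 members passed. In each of the 8 genes 3 acute mice (B3, B4 and C3) were above the chronic median. Acute replicate B2 was above it for 1 of the 8.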

How the results depend on the processing

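No member changed direction in a called value under any alternative run. Of 590 fold changes of single members under other settings, 525 kept their side of the threshold, 49 lost the call and 16 gained it, and of 2030 with an array left out the numbers were 1880, 141 and 9. The number of members called higher was 8, 3, 3, 7 and 7 for acute colitis, 1, 2 and 3 cycles and recovery against control, and 8 for acute against chronic colitis. Asking also a fold change above 2, it was 4, 0, 0, 1 and 1 against control and 2 for acute against chronic. With only the compared groups fitted it was 7 after 1 cycle, 7 after 2 cycles and 3 for acute against chronic, and with array weights 6, 6 and 4. With the 2 sets of arrays as a covariate it was 1 after 2 cycles, 0 after 3 cycles and 0 after recovery (4, 4 and 6 at an unadjusted p under 0.05, limma). Within the low set it was 1 after 1 cycle and 0 after 2 cycles (5 and 2 at an unadjusted p under 0.05), from fewer arrays, and 6 in acute colitis; the other comparisons could not be fitted there. With the 5 arrays high in squamous epithelium markers (G3, M1, M3, N2 and N3) left out together, a choice made after seeing the data, it was 2 after 3 cycles and 0 after recovery (6 and 3 at an unadjusted p under 0.05, limma), where M5 alone was left. With each array left out in turn the number ranged from 7 to 8 in acute colitis, 1 to 5 after 1 cycle, 1 to 6 after 2 cycles, 2 to 7 after 3 cycles (2 without G3), 3 to 7 after recovery (3 without M1) and 2 to 8 for acute against chronic (2 without B3). Recovery against 2 cycles gave 0 throughout, as did lower members in every comparison. The share of all probe sets called is given for the main model only, so these counts cannot be set against the share under the same setting. Except as stated, the cause of the changes in these counts was not tested. No paired analysis was possible because each mouse belongs to 1 group and each letter of the labels to 1 group; as a random block the letter had a correlation of -0.07. Another probe set per gene was not run, since each member has 1.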
